A study of Rattus norvegicus with 16 samples.

Results

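The genes described here are antioxidant and redox genes of the rat kidney cortex. They were chosen from a list of 33 symbols covering 4 catalase and superoxide dismutase genes, 5 glutathione peroxidases, 6 peroxiredoxins, 8 targets of the transcription factor NRF2, NRF2 itself with its inhibitor Keap1, and 8 other redox enzymes. Of these 33 symbols, 32 stood in the symbol column of a table of 32623 genes, each in a single row. Srxn1, listed as an NRF2 target, was not matched to a row, so its expression is not analysed here. All 32 passed the filter on low counts, which kept 14390 genes. The study measured RNA by sequencing in 16 libraries of kidney cortex, 4 each from old males, young males, old females and young females. Its title names the cGAS-STING pathway, ageing and sexual dimorphism in diabetic kidney disease, and the comparisons made here are those of age within each sex and of sex within each age.

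Every library carries the same genotype label, Homo, which the labels do not explain, and the label for no treatment. The labels give age as young or old without a number, give no strain, and mark no library as diabetic. They do not state that each library of a group is a separate animal. The p-values therefore measure only how far these libraries spread, which may be technical. All young libraries carry an identifier that starts with DS. Of the old libraries, male replicates 1, 2 and 3 and female replicates 1 and 2 carry OP, and the labels do not say what either prefix stands for.

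Oxidants such as superoxide and hydrogen peroxide arise in mitochondria, peroxisomes and membrane oxidases, and the kidney tubule, with its many mitochondria and peroxisomes, makes them steadily. Superoxide dismutases turn superoxide into hydrogen peroxide, which catalase, glutathione peroxidases and peroxiredoxins remove. Glutathione peroxidases and peroxiredoxins draw their electrons from glutathione and thioredoxin, which are kept reduced by glutathione reductase and thioredoxin reductases. NRF2, encoded by Nfe2l2, is held at low level by Keap1, which marks it for degradation. When oxidants or electrophiles modify Keap1, NRF2 accumulates and binds antioxidant response elements in genes for glutathione synthesis, thioredoxin and haem breakdown. NRF2 activity is set mostly at the level of the protein, which RNA counts do not measure.

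The antioxidant response element has the core TGACNNNGC, where N is any base. It was searched on both strands in RefSeq promoter windows of the GRCr8 build, which run from 250 bases before to 50 bases after a gene's start. A window was at hand for 27 of the 33 listed genes, Srxn1 included, and 8 of these 27 (29.6%) held the core, against 3602 of 27457 genes with a window (13.1%). The stricter form TGACNNNGCA, with an A added to the core, was held by 2 of 27 (7.41%), against 3.21% of all genes. The 8 genes were Gclm, Prdx1, Txnrd1, Hmox2, Sod2, Prdx4, Prdx5 and Nfe2l2. A match is only a description of these letters, and Gclc, Gss, Nqo1, Txn1 and Cat had none in this window. The 5 genes whose match lay wholly before the start are given by 100 bases around it. They were picked by that position and not by their expression. Each is read 5′ to 3′ on the gene's own strand, with the match in capitals. All 5 matches lay on the opposite strand, so the capitals are the reverse complement of the core.
Gclm (chr2:213031917-213032016, + strand): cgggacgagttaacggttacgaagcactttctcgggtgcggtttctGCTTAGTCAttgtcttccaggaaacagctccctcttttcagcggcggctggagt
Prdx1 (chr5:135383725-135383824, + strand): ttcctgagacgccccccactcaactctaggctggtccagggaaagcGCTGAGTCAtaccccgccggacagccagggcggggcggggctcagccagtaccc
Txnrd1 (chr7:22755929-22756028, - strand): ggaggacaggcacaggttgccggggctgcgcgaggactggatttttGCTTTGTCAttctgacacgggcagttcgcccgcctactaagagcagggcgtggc
Hmox2 (chr10:11337654-11337753, - strand): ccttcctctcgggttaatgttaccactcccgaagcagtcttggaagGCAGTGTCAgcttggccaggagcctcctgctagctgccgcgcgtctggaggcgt
Sod2 (chr1:50050169-50050268, - strand): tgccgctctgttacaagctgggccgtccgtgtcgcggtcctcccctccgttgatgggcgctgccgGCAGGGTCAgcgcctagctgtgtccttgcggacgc
The core began 172 bases before the start in Gclm, 135 in Prdx1, 78 in Txnrd1, 95 in Hmox2 and 35 in Sod2. Txnrd1 and Hmox2 each also had a window at another start, which held no match. The transcripts of all 5 were lower in old males than in young males, while those of Prdx1, Txnrd1 and Hmox2 were higher in young males than in young females. Among the rest of the 8 genes, Prdx5 was lower in old than in young males (log2 fold change -0.59). Prdx4 (0.36) and Nfe2l2 (0.37) were higher. Gclc, Gss, Txn1 and Cat, which had no match, were lower too, and Nqo1 did not pass. Values of all these genes are given with their families.

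Total counts per library ran between 10827485 and 35957516 in old males, 13416132 and 20274749 in young males, 14269100 and 17048319 in old females and 11570788 and 14736236 in young females. The chromosome Y genes Eif2s3y and Kdm5d had 967 to 3726 and 324 to 1326 counts in the 8 male libraries, and 0 in the 8 female libraries. Summed proximal tubule markers (12 genes, led by Lrp2) stood at 8682 to 9373 CPM in old males and 14130 to 15930 CPM in young males. In old females they stood at 12390 to 14420 CPM and in young females at 11120 to 13670 CPM. Proximal tubule markers were thus present in every library. How far each sample kept to cortex was not tested. Old male replicate 4 stood apart from its group. Its thick ascending limb markers (8 genes) summed to 1547 CPM, against 5066 to 6052 CPM in the other old males and 5664 or more in every other library. CPM values are counts relative to the library total after TMM scaling.

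Levels are compared between genes by the deposited RPKM, which are per kilobase of gene length. Gpx3, the glutathione peroxidase that kidney tubules secrete into plasma, was the most abundant of the 32 in every group, at 10135 ± 3380.0 RPKM in old males and 7589 ± 758 RPKM in young males, and at 6785 ± 1112 RPKM in old females and 7292 ± 2261 RPKM in young females (SD, n = 4 each). Gclc, the catalytic subunit of the enzyme that starts glutathione synthesis, ranked 2 in young males, old females and young females but 6 in old males. Its RPKM averaged 512 ± 360.3 in old males and 2331 ± 332 in young males, and 1220.3 ± 125 in old females and 1695 ± 107 in young females. Gpx7 ranked 32 in all 4 groups, at 3.38 ± 0.661 RPKM in old and 1.54 ± 0.300 RPKM in young males, and at 2.25 ± 0.826 RPKM in old and 2.88 ± 0.720 RPKM in young females. Hmox1 ranked 25 in old males, 30 in young males and 31 in both female groups. The order of genes with close ranks was within the spread of the libraries and was not tested.

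With age, antioxidant genes mostly fell in males. Of the 32 members, 19 were lower (59.4%) and 7 higher (21.9%) in old than in young males by edgeR's quasi-likelihood test at an adjusted p under 0.05, and 6 did not pass. Over all genes tested, 24.6% were lower, 25.3% higher and 50% either. The members' median log2 fold change was -0.41, beside -0.0028 over all genes. In females the same comparison gave 3 members higher and 0 lower, with 29 not passing, against 2.54% of all genes higher, 3.17% lower and 5.71% either, and a members' median of 0.08. The 3 were Gpx1, Prdx1 and Glrx. At an unadjusted p under 0.05, 9 were higher and 0 lower in old females, and DESeq2 called 4 higher and 0 lower and limma-voom 2 higher and 0 lower. Scaling by library totals alone moved the median of all genes to 0.32 in males, and the members' counts to 14 lower and 11 higher, with a median of -0.08. Of all 14390 genes, that scaling gave 1329 lower and 7849 higher. All 4 old male libraries lay below all 4 young male libraries for 19 members (22.6% of all genes) and above them for 4 (23.7%), so 23 of 32 did not overlap, against 46.3% of all genes. Old females lay wholly above young females for 3 members (5.61% of all genes) and wholly below for 1, Gclc (5.46%), which is 4 of 32 against 11.1%. Calls that did not pass under another setting with age in males, with the log2 difference there in brackets, were those of Gpx4 (-0.10), Prdx1 (-0.12), Txnrd1 (-0.06), Txnrd2 (0.03) and Gsr (-0.06) under library totals alone, of Prdx1 (-0.30) and Prdx4 (0.39) among DS libraries alone and of Txnrd2 (-0.27) with the identifier prefix as covariate. With age in females they were those of Glrx (0.51) under library totals alone, of Prdx1 (0.28) and Glrx (0.66) among DS libraries alone, of Prdx1 (0.26) with the inner medulla score as covariate, of Glrx (0.57) by limma-voom and of Glrx (0.56) in a fit of only the groups compared. The score is the mean log2 CPM, in a library, of the tested genes listed as inner medulla markers. Whether it reflects inner medulla tissue was not tested. DS libraries alone hold a single old male. Changes that passed and reached 1.5-fold numbered 14 with age in males and 1 with age in females, against 25.8% and 3.50% of all genes.

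**Figure D1:**
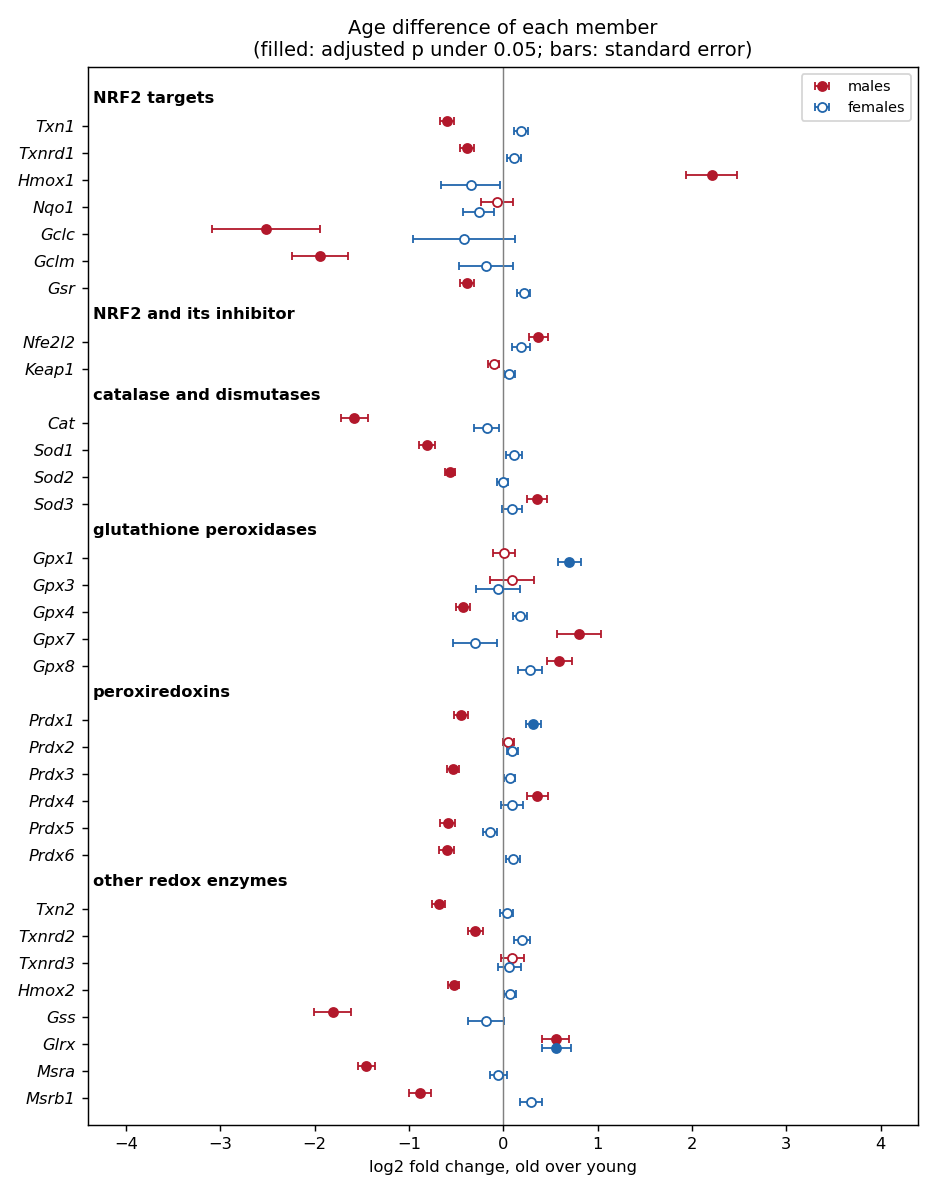
Log2 fold change of each measured gene with age (old over young) in males and in females, grouped by role, with bars for the standard error and filled points for an adjusted p under 0.05. In males 19 genes lie left of 0 and passed, and 7 lie right of 0 and passed, while in females 3 passed, all of them higher in old rats.

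The 3 largest falls among these 32 genes were those of the genes of glutathione synthesis. Gclc, the catalytic subunit of glutamate-cysteine ligase, gave 2474, 1684, 1345 and 73.5 CPM in old males, against 7796, 8118, 9471 and 6385 CPM in young males. Old females gave 4163, 4185, 3578 and 3310.0 CPM, against 4865, 5442, 5032 and 4984 CPM in young females. Every old male library lay below all the others, and old male replicate 4 held far less than replicates 1 to 3. The fitted level was 5.70-fold lower in old than in young males (log2 fold change -2.51 with an SE of 0.572, adjusted p = 0.00163). Between old males and old females the log2 difference was -1.45 (SE 0.552, adjusted p = 0.0385). Without old male replicate 4 these became -2.11 (SE 0.184, adjusted p = 2.6e-07) and -1.06 (adjusted p = 0.000124). All 4 young male libraries held more Gclc than all 4 young female libraries, and all 4 old females less than all 4 young females. Neither passed in the model over all libraries (adjusted p = 0.399 for young males against young females and 0.727 for old against young females). Left without old male replicate 4, the model gave 0.63 (adjusted p = 0.00622) for young males against young females and -0.42 (adjusted p = 0.131) for old against young females. The difference of old males from old females did not pass when old female replicate 1, 2, 3 or 4 or old male replicate 2 or 3 was left out (log2 differences of -1.56 to -1.40, adjusted p = 0.0521 to 0.0762). For the comparisons of young rats and of females, the omission of old male replicate 4 was added after the values were seen.

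Gclm, the modifier subunit that raises the affinity of glutamate-cysteine ligase, gave 609, 482, 419 and 133 CPM in old males, against 1497, 1528, 1826 and 1454 CPM in young males. Old females gave 1923, 1276, 1459 and 1424 CPM, against 1791, 1541, 1668 and 1924 CPM in young females. Old male replicate 4 was again the lowest library, and all 4 old males lay below every other library. The level was 3.83-fold lower in old than in young males (log2 fold change -1.94 with an SE of 0.297, adjusted p = 4.86e-05), and the log2 difference of old males from old females was -1.89 (SE 0.297, adjusted p = 5.88e-05). Gss, which adds glycine in the second step, gave 327, 252, 216 and 121 CPM in old males, against 772, 781, 872 and 783 CPM in young males. Old females gave 879.9, 705, 689 and 777 CPM, against 847, 837, 874 and 915 CPM in young females. It too was lowest in old male replicate 4 and did not overlap between old males and any other group. The fall was 3.50-fold in old against young males (log2 fold change -1.81 with an SE of 0.196, adjusted p = 1.54e-06), and old males differed from old females by -1.73 (SE 0.196, adjusted p = 1.97e-06) on the log2 scale. Neither gene passed in females with age, at a log2 fold change of -0.19 (SE 0.287, adjusted p = 0.775) for Gclm and -0.19 (SE 0.190, adjusted p = 0.639) for Gss. Nor did either pass between young males and young females, at -0.14 (SE 0.287, adjusted p = 0.76) for Gclm and -0.11 (SE 0.190, adjusted p = 0.692) for Gss.

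Markers of the S3 segment, the last stretch of the proximal tubule, moved with these genes. The 11 S3 markers summed to 3225, 2618, 2321 and 1008 CPM in old male replicates 1 to 4, against 8122 to 9618 CPM in young males, 7026 to 10380 CPM in old females and 8429 to 9029 CPM in young females. The 4 old male libraries stood in the same order for this sum as for Gclc, Gclm and Gss. Cat, Msra, Nqo1, Txnrd2 and Prdx5 stood in this order too, so it was not particular to the glutathione genes. In young males the sum was lowest in replicate 2, at 8122 CPM, and Gclc in replicate 4, at 6385 CPM. Of the 11 markers, 10 were lower in old than in young males and the other did not pass, with a median log2 fold change of -1.43. Slc7a13, the most abundant of them, ran from 6.35 to 786 CPM in old males and from 3062 to 4178 CPM in young males. The part of this change in the fall of the glutathione genes was not tested, and in bulk cortex fewer cells of a type and less RNA per cell cannot be told apart. The only old male library with the DS prefix was replicate 4, so among DS libraries alone the log2 fold change in males was -6.76 for Gclc, -3.57 for Gclm and -2.73 for Gss, from a single old library assumed to vary like the others.

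**Figure D2:**
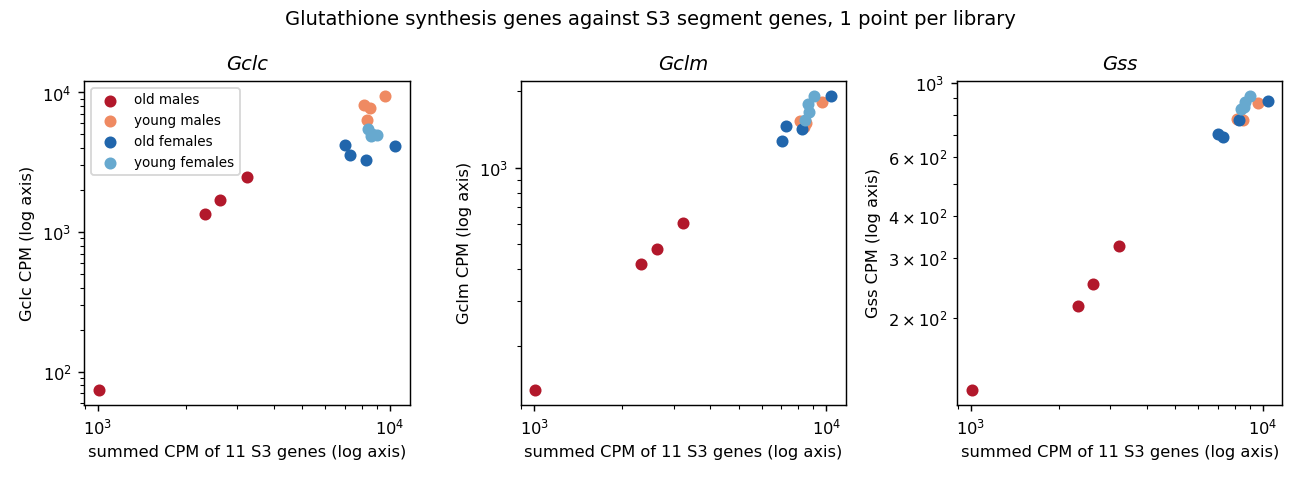
Gclc, Gclm and Gss (CPM, log axis) against the summed CPM of 11 markers of the proximal tubule S3 segment (log axis), 1 point per library, coloured by group. The 4 old male libraries, at 1008 to 3225 summed CPM, lie apart on both axes from the other 12 libraries, at 7026 or more summed CPM.

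Gsr, glutathione reductase, gave 249.6, 238, 216 and 239 CPM in old males, against 301, 313, 309 and 309 CPM in young males. Old females gave 269.6, 262, 245 and 254 CPM, against 204, 206, 224 and 255 CPM in young females. The young males stood above all other libraries, and young females, with the lowest mean, overlapped both old groups. It was lower in old than in young males (log2 fold change -0.39 with an SE of 0.0706, adjusted p = 0.000259), a difference of -0.06 that did not pass under library totals alone, and higher in young males than in young females (log2 fold change 0.47 with an SE of 0.0708, adjusted p = 8.74e-05). Old males and old females overlapped (log2 difference -0.13, SE 0.0705, adjusted p = 0.144).

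**Figure D3:**
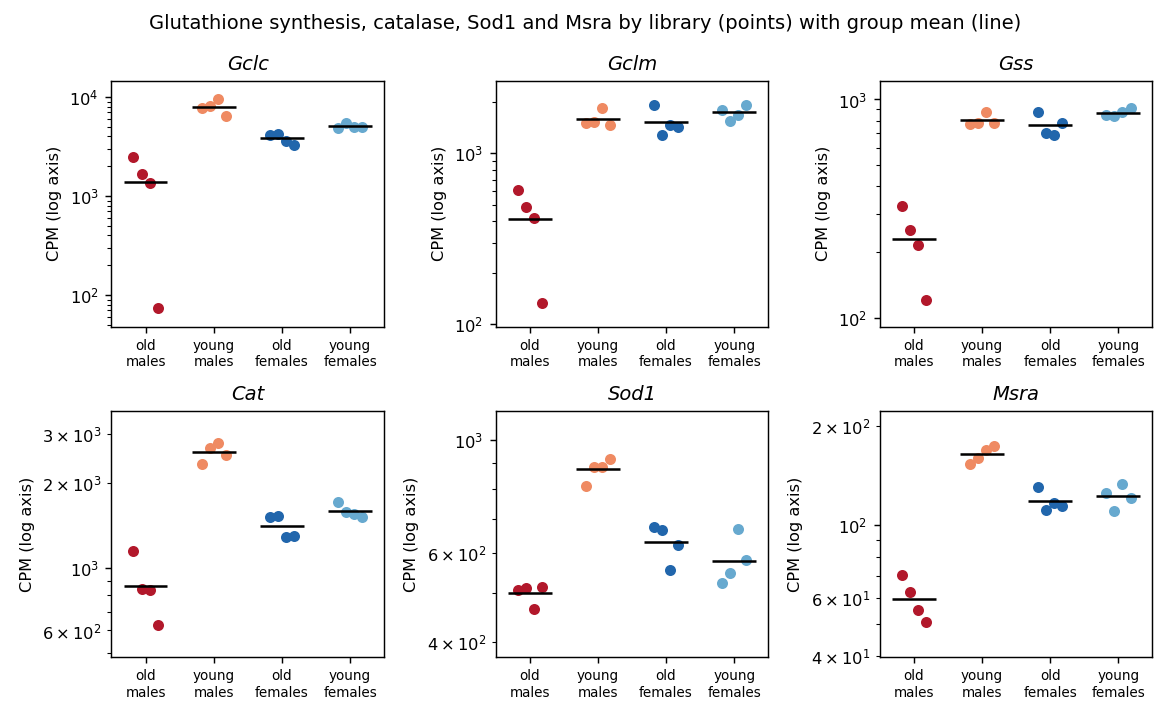
CPM per library (points, log axis) and group mean (line) of Gclc, Gclm, Gss, Cat, Sod1 and Msra in old males, young males, old females and young females. All 4 old male libraries lie below all 4 young male libraries in each panel, and Gclc spreads in old males between 73.5 and 2474 CPM.

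Hmox1 went the other way. It encodes the inducible haem oxygenase, which breaks down haem and is high in macrophages that clear red cells. Hmox1 gave 24.0, 35.7, 48.0 and 39.2 CPM in old males, against 4.95, 8.50, 11.1 and 6.99 CPM in young males. Old females gave 3.96, 6.99, 4.21 and 2.54 CPM, against 3.98, 6.17, 6.38 and 5.93 CPM in young females. All 4 old males lay above the other 12 libraries, which overlapped one another. It was 4.62-fold higher in old than in young males (log2 fold change 2.21 with an SE of 0.268, adjusted p = 4.73e-06) and 8.31-fold higher in old males than in old females (log2 fold change 3.06 with an SE of 0.285, adjusted p = 2.46e-07). Neither the age comparison in females (-0.34, SE 0.312, adjusted p = 0.587) nor the sex comparison in young rats (0.50, SE 0.296, adjusted p = 0.216) passed. Macrophage and monocyte markers (14 genes, led by Lyz2) summed to 596 to 1030 CPM in old males and 224 to 260 CPM in young males, and 153 to 258 CPM in old females and 192 to 296 CPM in young females, with none of the 14 at 0 in a group. All 13 tested were higher in old than in young males, as were 12 of 12 T and NK cell markers and 6 of 6 B and plasma cell markers, while Gzmb was at 0 in every group. Tubule injury markers (10 genes, led by Spp1) summed to 10190 to 18990 CPM in old males and 738 to 898 CPM in young males, with 9 higher. The part of these changes in the rise of Hmox1 was not tested. Hmox2, the constitutive haem oxygenase, gave 78.3, 72.0, 72.7 and 77.7 CPM in old males, against 105, 105, 110.3 and 112 CPM in young males. Old females gave 98.3, 101, 82.4 and 90.7 CPM, against 85.9, 88.2, 94.0 and 85.3 CPM in young females. It was lower in old than in young males (log2 fold change -0.53 with an SE of 0.0630, adjusted p = 4.04e-06), with no overlap, lower in old males than in old females (log2 fold change -0.31 with an SE of 0.0630, adjusted p = 0.000636), and higher in young males than in young females (log2 fold change 0.29 with an SE of 0.0631, adjusted p = 0.00202). Scaled by library totals alone, these sex differences were -0.11 and 0.11, and neither passed.

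The remaining NRF2 targets were thioredoxin, its reductase and Nqo1. Txn1, the cytosolic thioredoxin that passes electrons to peroxiredoxins and to methionine sulfoxide reductases, gave 212, 223, 208 and 228 CPM in old males, against 295, 331, 342 and 354 CPM in young males. Old females gave 214, 248, 218 and 248 CPM, against 188, 198, 208 and 219.6 CPM in young females. Young males stood above all other libraries, and old males overlapped old females. It was 1.52-fold lower in old than in young males (log2 fold change -0.60 with an SE of 0.0737, adjusted p = 5.27e-06) and 1.62-fold higher in young males than in young females (log2 fold change 0.70 with an SE of 0.0740, adjusted p = 2.29e-06). Txnrd1, the selenoprotein that reduces thioredoxin in the cytosol, gave 186, 189.6, 186 and 175 CPM in old males, against 230.0, 240.3, 252 and 241 CPM in young males. Old females gave 183, 211, 176 and 163 CPM, against 156, 169.9, 166 and 186 CPM in young females. Again young males were the high group and the other 3 overlapped. Txnrd1 differed by -0.39 (SE 0.0733, adjusted p = 0.000354) on the log2 scale with age in males, which became -0.06 and did not pass under library totals alone, and by 0.51 (SE 0.0736, adjusted p = 5.97e-05) between young males and young females. Nqo1, a quinone reductase much used as a readout of NRF2, gave 10.8, 10.4, 8.70 and 7.91 CPM in old males, against 9.15, 10.6, 12.0 and 7.96 CPM in young males. Old females gave 15.7, 13.8, 13.7 and 13.8 CPM, against 15.5, 16.9, 12.4 and 23.4 CPM in young females. The males of both ages overlapped, and all lay below the females of their own age. Nqo1 was lower in old males than in old females (log2 fold change -0.58 with an SE of 0.166, adjusted p = 0.00764) and in young males than in young females (log2 fold change -0.78 with an SE of 0.169, adjusted p = 0.00207), and did not pass with age in males (-0.07, SE 0.169, adjusted p = 0.775) or females (-0.26, SE 0.165, adjusted p = 0.408).

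Of NRF2 and its inhibitor, only NRF2 passed with age in males. Nfe2l2 ran from 161 to 201 CPM in old males, against 129 to 166 CPM in young males, and from 131 to 158 CPM in old females, against 117 to 151 CPM in young females. A single young male library, at 166 CPM, overlapped the old males. Nfe2l2 was 1.29-fold higher in old than in young males (log2 fold change 0.37 with an SE of 0.0989, adjusted p = 0.00495) and 1.24-fold higher in old males than in old females (log2 fold change 0.31 with an SE of 0.0987, adjusted p = 0.0166). Its difference between the old groups did not pass when old female replicate 1 or old male replicate 4 was left out (log2 differences of 0.24 to 0.26, adjusted p = 0.057 to 0.0584). Keap1 ran from 43.5 to 45.2 CPM in old males, against 44.6 to 52.2 CPM in young males, and passed in none of the 4 pairwise comparisons. Its log2 fold change with age in males was -0.10 (SE 0.0558, adjusted p = 0.137), and 0.22 under library totals alone, so its direction there depends on the scaling.

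**Figure D4:**
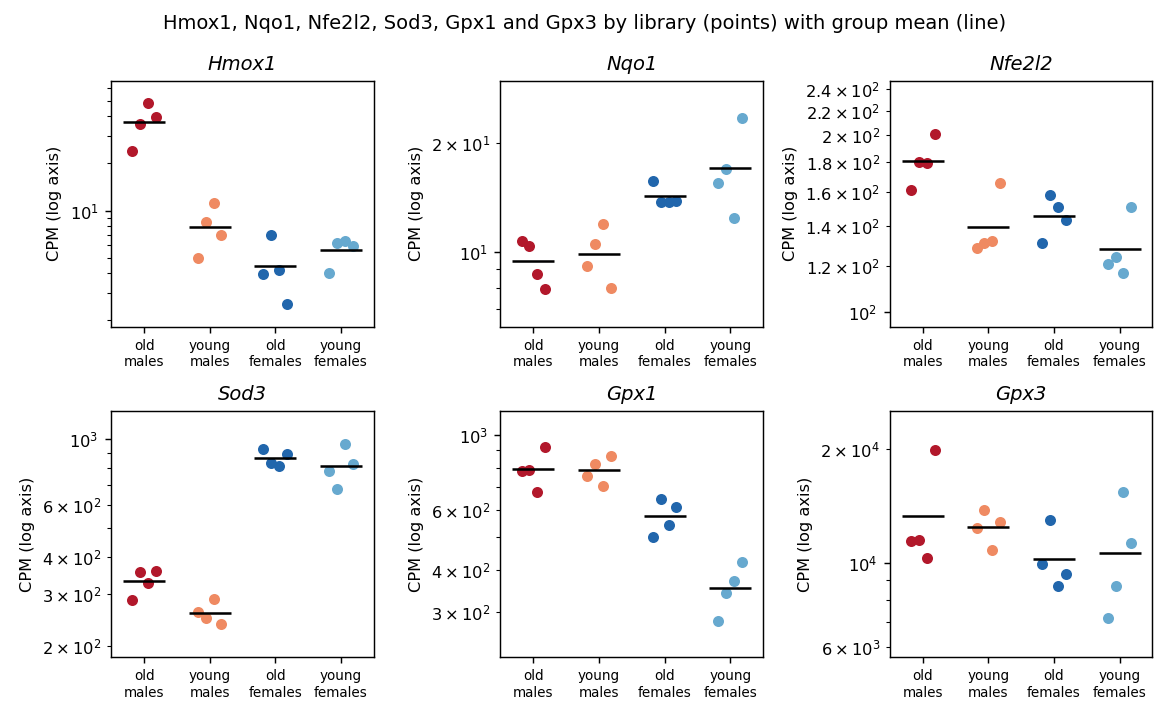
CPM per library (points, log axis) and group mean (line) of Hmox1, Nqo1, Nfe2l2, Sod3, Gpx1 and Gpx3 in old males, young males, old females and young females. Hmox1 separates the old males (24.0 to 48.0 CPM) from the other groups, Sod3 and Nqo1 separate each male group from the females of its age, and Gpx3 overlaps in all groups.

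Catalase and the intracellular dismutases fell with age in males, and the extracellular dismutase was higher. Cat, the peroxisomal enzyme that splits hydrogen peroxide, gave 1151, 843, 838 and 626 CPM in old males, against 2337, 2667, 2789 and 2527 CPM in young males. Old females gave 1521, 1528, 1291 and 1301 CPM, against 1715, 1583, 1556 and 1519 CPM in young females. None of the old male libraries reached any other library, and the young males were above both female groups. Cat was 2.98-fold lower in old than in young males (log2 fold change -1.58 with an SE of 0.139, adjusted p = 1.98e-07). Young males exceeded young females (log2 fold change 0.70 with an SE of 0.136, adjusted p = 0.000951), while old males were below old females (log2 fold change -0.71 with an SE of 0.137, adjusted p = 0.000408). Sod1, the copper-zinc dismutase of the cytosol, gave 507, 510.0, 464 and 513 CPM in old males, against 812, 885, 887 and 919 CPM in young males. Old females gave 673, 665, 554 and 622 CPM, against 522, 546, 668 and 579.7 CPM in young females. The same order held, with old males lowest, young males highest and the females overlapping between them. Sod1 was 1.76-fold lower in old than in young males (log2 fold change -0.81 with an SE of 0.0847, adjusted p = 9.94e-07), lower in old males than in old females (log2 fold change -0.33 with an SE of 0.0843, adjusted p = 0.00347) and higher in young males than in young females (log2 fold change 0.60 with an SE of 0.0845, adjusted p = 4.98e-05).

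Sod2, the manganese dismutase of mitochondria, gave 226, 201, 202 and 203 CPM in old males, against 284, 309, 316 and 319 CPM in young males. Old females gave 299, 304, 296 and 303 CPM, against 305, 291, 312 and 299 CPM in young females. Only the old males stood apart, and the other 3 groups lay within 284 to 319 CPM. Its log2 fold change was -0.56 (SE 0.0567, adjusted p = 7.21e-07) with age in males and -0.53 (SE 0.0567, adjusted p = 1.03e-06) between old males and old females. Between young males and young females it was 0.03 (SE 0.0565, adjusted p = 0.763), which library totals alone turned to -0.16. Sod3, the dismutase secreted to the extracellular matrix, gave 287, 355, 328 and 359 CPM in old males, against 261, 248, 289 and 237 CPM in young males. Old females gave 925, 833, 812 and 889 CPM, against 778, 677, 965 and 823 CPM in young females. All 8 male libraries lay below all 8 female libraries, and the old and young males overlapped by a single pair of libraries. Sod3 was 2.60-fold lower in old males than in old females (log2 fold change -1.38 with an SE of 0.104, adjusted p = 2.68e-08) and 3.13-fold lower in young males than in young females (log2 fold change -1.65 with an SE of 0.105, adjusted p = 9.55e-09). With age it was 1.28-fold higher in old than in young males (log2 fold change 0.36 with an SE of 0.103, adjusted p = 0.008).

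The glutathione peroxidases did not move together. Gpx1, the cytosolic selenium enzyme, gave 783, 787, 679 and 921 CPM in old males, against 756, 820.3, 709 and 866 CPM in young males. Old females gave 502, 647, 542 and 611 CPM, against 283, 342, 371 and 422 CPM in young females. Males of both ages overlapped and lay above the females, and old females lay above young females. Gpx1 was 1.62-fold higher in old than in young females (log2 fold change 0.70 with an SE of 0.122, adjusted p = 0.00463), and this call held in all 20 other settings tried. It did not pass in males with age (0.01, SE 0.121, adjusted p = 0.96). Males exceeded females by 1.38-fold in old rats (log2 fold change 0.46 with an SE of 0.121, adjusted p = 0.00452) and by 2.22-fold in young rats (log2 fold change 1.15 with an SE of 0.123, adjusted p = 2.47e-06). Gpx4, which reduces lipid hydroperoxides in membranes and guards against ferroptosis, gave 418, 423, 377 and 373 CPM in old males, against 517, 536, 565 and 523 CPM in young males. Old females gave 484, 478, 434 and 543 CPM, against 399.7, 413, 434 and 464 CPM in young females. Old males lay below young males and below old females without overlap. Its log2 fold change was -0.43 (SE 0.0761, adjusted p = 0.000195) with age in males, -0.29 (SE 0.0760, adjusted p = 0.00509) between old males and old females and 0.32 (SE 0.0761, adjusted p = 0.00373) between young males and young females. Under library totals alone the change with age in males was -0.10 and did not pass.

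Gpx7 and Gpx8 act in the endoplasmic reticulum and lack selenium. Gpx7 gave 2.63, 3.54, 3.63 and 4.20 CPM in old males, against 2.41, 2.07, 1.57 and 1.95 CPM in young males. Old females gave 1.84, 2.31, 3.93 and 2.60 CPM, against 3.91, 3.92, 2.54 and 2.79 CPM in young females. The 4 young males were the low group, below all old males and below all young females, at few counts. The log2 fold change was 0.81 (SE 0.234, adjusted p = 0.0088) with age in males and -0.72 (SE 0.243, adjusted p = 0.0323) between young males and young females. The difference of the young groups in Gpx7 did not pass when young female replicate 1 or 2 or young male replicate 2, 3 or 4 was left out (log2 differences of -0.74 to -0.61, adjusted p = 0.0565 to 0.103). With the inner medulla score as covariate it was -0.25 (adjusted p = 0.74). Gpx8 gave 12.1, 13.9, 14.2 and 16.5 CPM in old males, against 7.77, 9.30, 9.65 and 10.6 CPM in young males. Old females gave 13.7, 18.8, 15.9 and 20.5 CPM, against 14.0, 14.3, 13.1 and 15.3 CPM in young females. Young males were again lowest, with no overlap with any other group. For Gpx8 the log2 differences were 0.60 (SE 0.130, adjusted p = 0.00114) with age in males and -0.60 (SE 0.133, adjusted p = 0.00236) between young males and young females. Gpx3, by contrast, passed in none of the 4 pairwise comparisons, with 10288 to 19897 CPM in old males, 10801 to 13754 CPM in young males, 8711 to 12988 CPM in old females and 7138 to 15385 CPM in young females. Its highest library was old male replicate 4, and its log2 fold change with age in males was 0.09 (SE 0.236, adjusted p = 0.77), and -0.17 without that library.

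Among the peroxiredoxins, which reduce peroxides through a reactive cysteine, 4 of 6 were lower (66.7%) and 1 higher (16.7%) in old than in young males. Over all genes 24.6% were lower and 25.3% higher. Under library totals alone 3 of the 6 were lower and 2 higher, beside 1329 lower and 7849 higher of all 14390 genes. Prdx1, a cytosolic peroxiredoxin that is also an NRF2 target, gave 589.5, 632, 597 and 706 CPM in old males, against 796, 864, 933 and 855 CPM in young males. Old females gave 634, 646, 559 and 640.4 CPM, against 471, 503, 499 and 512 CPM in young females. Young males were highest and young females lowest, and the old groups overlapped in between. Prdx1 was lower in old than in young males (log2 fold change -0.45 with an SE of 0.0754, adjusted p = 0.000112) and higher in old than in young females (log2 fold change 0.32 with an SE of 0.0755, adjusted p = 0.0206). The rise in females did not pass when old female replicate 2 or 4 or young female replicate 1 or 2 was left out (log2 differences of 0.29 to 0.32, adjusted p = 0.0515 to 0.0846). Its fall in males was -0.12 and did not pass under library totals alone. In young rats it was 1.74-fold higher in males than in females (log2 fold change 0.80 with an SE of 0.0758, adjusted p = 7.5e-07).

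Prdx3, the mitochondrial peroxiredoxin, gave 189, 174, 169 and 181 CPM in old males, against 246, 255, 272 and 259 CPM in young males. Old females gave 265, 276, 253 and 291 CPM, against 245, 271, 254 and 265 CPM in young females. Old males lay below all other libraries, which overlapped. The log2 differences of old males were -0.53 (SE 0.0603, adjusted p = 2.33e-06) from young males and -0.60 (SE 0.0603, adjusted p = 5.1e-07) from old females. Prdx5, found in mitochondria, peroxisomes and cytosol, gave 272, 228, 226 and 225 CPM in old males, against 355, 368, 361 and 348 CPM in young males. Old females gave 338, 392, 382 and 396 CPM, against 441, 448, 400.4 and 374 CPM in young females. Old males were again the low group, and young males lay below young females. Its differences were -0.59 (SE 0.0785, adjusted p = 1.22e-05) with age in males, -0.66 (SE 0.0786, adjusted p = 3.17e-06) between old males and old females and -0.22 (SE 0.0783, adjusted p = 0.0445) between young males and young females. The difference of the young groups in Prdx5 did not pass when young female replicate 1, 2 or 3 or young male replicate 1, 2, 3 or 4 was left out (log2 differences of -0.23 to -0.19, adjusted p = 0.0525 to 0.104). Prdx6, the 1-cysteine member that also acts as a phospholipase, gave 300.0, 292, 283 and 295 CPM in old males, against 416, 424, 467 and 467 CPM in young males. Old females gave 481, 401, 401 and 479 CPM, against 392, 423, 388 and 442 CPM in young females. Old males stood below all 12 other libraries. Its log2 differences were -0.60 (SE 0.0758, adjusted p = 7e-06) from young males and -0.59 (SE 0.0758, adjusted p = 7.34e-06) from old females. Prdx4, the peroxiredoxin of the endoplasmic reticulum, was higher in old males, at 25.1 to 29.8 CPM, than in young males, at 20.1 to 23.4 CPM (log2 fold change 0.36 with an SE of 0.112, adjusted p = 0.0136), and than in old females, at 16.3 to 23.3 CPM (log2 fold change 0.48 with an SE of 0.112, adjusted p = 0.00194). Prdx2 passed in no comparison, at 190.2 to 207 CPM in old males, 187 to 202 CPM in young males, 170.0 to 197 CPM in old females and 171 to 186 CPM in young females.

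The mitochondrial thioredoxin pair fell with age in males. Txn2, the thioredoxin of mitochondria, gave 178, 165, 149.6 and 158 CPM in old males, against 242, 279, 266 and 258 CPM in young males. Old females gave 188, 211, 211 and 222 CPM, against 204, 209, 205 and 192 CPM in young females. Old males were lowest and young males highest, without overlap with the females of their age. Txn2 was 1.61-fold lower in old than in young males (log2 fold change -0.68 with an SE of 0.0683, adjusted p = 6.63e-07), lower in old males than in old females (log2 fold change -0.36 with an SE of 0.0681, adjusted p = 0.000372) and higher in young males than in young females (log2 fold change 0.37 with an SE of 0.0681, adjusted p = 0.000623). Txnrd2, its reductase, gave 42.7, 42.5, 38.1 and 36.2 CPM in old males, against 51.0, 52.8, 45.6 and 46.9 CPM in young males. Old females gave 41.9, 43.5, 45.4 and 51.3 CPM, against 37.5, 45.2, 39.2 and 36.6 CPM in young females. The gap between the male groups was narrow. Txnrd2 differed by -0.30 (SE 0.0833, adjusted p = 0.00736) with age in males, which library totals alone turned to 0.03, and by 0.31 (SE 0.0844, adjusted p = 0.0102) between young males and young females. Txnrd3, which carries a glutaredoxin part and is best known from testis, passed in none of the 4, with 9.38 to 12.9 CPM in old males and 9.37 to 12.3 CPM in young males.

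Methionine sulfoxide reductases repair oxidised methionine. Msra gave 70.4, 62.7, 55.2 and 50.9 CPM in old males, against 153, 159, 169 and 173 CPM in young males. Old females gave 131, 111, 117 and 114 CPM, against 125, 111, 133 and 121 CPM in young females. Every old male library lay below every other library, and the male and female young groups did not overlap. Msra was 2.73-fold lower in old than in young males (log2 fold change -1.45 with an SE of 0.0916, adjusted p = 1.09e-08) and 1.97-fold lower in old males than in old females (log2 fold change -0.98 with an SE of 0.0909, adjusted p = 2.36e-07), and was higher in young males than in young females (log2 fold change 0.42 with an SE of 0.0898, adjusted p = 0.00196). Msrb1, a selenoprotein, gave 166, 185, 172 and 218 CPM in old males, against 306, 344, 329 and 388 CPM in young males. Old females gave 225, 235, 240.1 and 285 CPM, against 169, 180.1, 206 and 248 CPM in young females. Young males were above all other libraries, and old males lay below old females. Its log2 differences were -0.88 (SE 0.120, adjusted p = 1.52e-05) with age in males, -0.41 (SE 0.120, adjusted p = 0.00892) between old males and old females and 0.77 (SE 0.120, adjusted p = 0.00013) between young males and young females. Glrx, the glutaredoxin that removes glutathione from protein thiols, gave 16, 18.3, 16.5 and 21.4 CPM in old males, against 11.1, 11.4, 10.7 and 16 CPM in young males. Old females gave 9.47, 8.85, 11.3 and 9.73 CPM, against 5.64, 5.67, 7.04 and 8.17 CPM in young females. It was higher in males than in females at each age and higher in old than in young rats of each sex, with young male replicate 4 inside the range of old males. The log2 differences were 0.56 (SE 0.144, adjusted p = 0.00409) with age in males, 0.56 (SE 0.157, adjusted p = 0.0452) with age in females, 0.87 (SE 0.145, adjusted p = 0.000105) between old males and old females and 0.88 (SE 0.156, adjusted p = 0.000413) between young males and young females. The difference with age in females did not pass when old female replicate 1, 2, 3 or 4 or young female replicate 1, 2 or 3 was left out (log2 differences of 0.48 to 0.61, adjusted p = 0.0655 to 0.158). Of the 20 other settings tried, the call of Glrx with age in females passed in 9 and that of Prdx1 in 14.

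NRF2 targets were set beside the peroxidases, catalase and dismutases, with Prdx1 kept among the peroxidases. The 7 measured NRF2 targets were Gclc, Gclm, Gsr, Hmox1, Txn1, Txnrd1 and Nqo1. Gss was listed with the other redox enzymes and is not among them. With age in males, 5 of the 7 measured NRF2 targets were lower and 1 higher, with a median log2 fold change of -0.39, and 8 of the 15 peroxide and superoxide enzymes were lower and 4 higher, with a median of -0.43. These are 71.4% and 14.3% of the NRF2 targets and 53.3% and 26.7% of the enzymes. Over all genes 24.6% were lower and 25.3% higher, so the share of higher enzymes was near that of all genes. Under library totals alone the counts were 3 lower and 1 higher among NRF2 targets (median -0.06) and 6 lower and 6 higher among the enzymes (median -0.10). Of all 14390 genes, that scaling gave 1329 lower and 7849 higher (median 0.32). The NRF2 targets spread further, between -2.51 for Gclc and 2.21 for Hmox1, while the enzymes lay between -1.58 for Cat and 0.81 for Gpx7. With age in females, 0 of 7 and 2 of 15 passed by edgeR (2 and 4 at an unadjusted p under 0.05, 1 and 2 by DESeq2, 0 and 2 by limma-voom), with medians of -0.19 and 0.09. The share of all genes that passed by edgeR was 5.71%. Between old males and old females, 3 NRF2 targets were lower and 1 higher (median -0.13), and 8 enzymes were lower and 2 higher (median -0.29). The shares of all genes were 23.8% lower and 25.5% higher. Between young males and young females, 3 NRF2 targets were higher and 1 lower (median 0.50), and 5 enzymes were higher and 4 lower (median 0.12). These are 42.9% and 14.3% of the NRF2 targets and 33.3% and 26.7% of the enzymes. Over all genes 16% were higher and 15.7% lower there, so the share of lower NRF2 targets was near that of all genes. With library totals alone the old groups gave 1 NRF2 target lower and 2 higher (median 0.07) and 6 enzymes lower and 5 higher (median -0.09). All genes there gave 1831 lower and 6066 higher (median 0.21). The NRF2 median changed sign, but both lists stayed below the median of all genes. The young groups gave 3 NRF2 targets higher and 1 lower (median 0.32) and 4 enzymes higher and 6 lower (median -0.06). All genes there gave 1132 higher and 4470 lower (median -0.17). The enzyme median changed sign, but both lists stayed above the median of all genes. The difference between these lists was not tested.

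Between the sexes, most members that passed were lower in males in old rats and higher in males in young rats. In old rats 16 of 32 members were lower and 5 higher in males than in females, against 23.8% lower, 25.5% higher and 49.3% either over all genes, with a members' median of -0.29. In young rats 14 were higher and 5 lower, against 16% higher, 15.7% lower and 31.8% either, with a median of 0.26. Library totals alone gave 9 lower and 9 higher in old rats, and 11 higher and 7 lower in young rats, and set the median of all genes to 0.21 and -0.17. Of all 14390 genes, that scaling gave 1831 lower and 6066 higher in old rats, and 1132 higher and 4470 lower in young rats. In old rats all males lay above all females for 5 members (23.8% of all genes) and below them for 16 (20.8%), 21 in all against 44.6%. In young rats they lay above for 16 (16.4%) and below for 5 (14.7%), 21 in all against 31.1%. Differences that passed and reached 1.5-fold numbered 11 in old and 11 in young rats, against 26.2% and 15.8% of all genes. Genes listed as inner medulla markers (10 genes, led by Prss8) summed to 524 to 727 CPM in old males and 874 to 1129 CPM in old females, and to 725 to 786 CPM in young males and 926 to 1599 CPM in young females, with Upk3a at 0 in old males. Prss8 alone stood at 176 to 207 CPM in old males, 358 to 392 CPM in young males, 392.5 to 527 CPM in old females and 400 to 494 CPM in young females. Whether the sum reflects inner medulla tissue was not tested. Of the 8 tested, 3 were lower and 1 higher in old males than in old females, and 6 were lower in young males than in young females (median -1.70) while the other 2 did not pass. With a score of these markers as covariate, 9 members were higher and 1 lower in young males. Of all 14390 genes, that fit gave 910 higher and 786 lower, so the calls over all genes fell as well. Cat, Sod1, Gpx4, Hmox2, Txn2, Msra and Msrb1 were higher in young males than in young females and lower in old males than in old females. Of these 7, Sod1, Gpx4, Hmox2, Txn2 and Msrb1 did not pass between the old groups under library totals alone, and Gpx4 and Hmox2 not between the young groups either. Sod3, Nqo1 and Prdx5 were lower, and Gpx1 and Glrx higher, in males than in females at both ages. Calls that did not pass under another setting in old rats, with the log2 difference there in brackets, were those of Sod1 (-0.13), Gpx4 (-0.08), Txn2 (-0.16), Hmox2 (-0.11), Nqo1 (-0.38), Gclc (-1.25) and Msrb1 (-0.21) under library totals alone, of Sod1 (-0.21), Prdx4 (0.40), Nfe2l2 (0.43), Hmox2 (-0.17), Nqo1 (-0.82) and Msrb1 (-0.28) among DS libraries alone and of Gclc (-1.46) in a fit of only the groups compared. In young rats they were those of Gpx4 (0.14), Txnrd2 (0.13) and Hmox2 (0.11) under library totals alone, of Cat (0.54), Gpx4 (0.36), Gpx7 (-0.25), Gpx8 (-0.42), Prdx5 (-0.18), Txnrd2 (0.38), Hmox2 (0.13), Nqo1 (-0.67) and Msra (0.40) with the inner medulla score as covariate and of Prdx5 (-0.23) with no filter on low counts. With the replicate number as a block, those of Gpx7 (-0.72) and Prdx5 (-0.21) did not pass either. The comparisons of age in males and of sex in old rats share the old male libraries, and those of age in males and of sex in young rats share the young male libraries, and the female groups are shared in the same way with age in females, so these values are not independent.

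**Figure D5:**
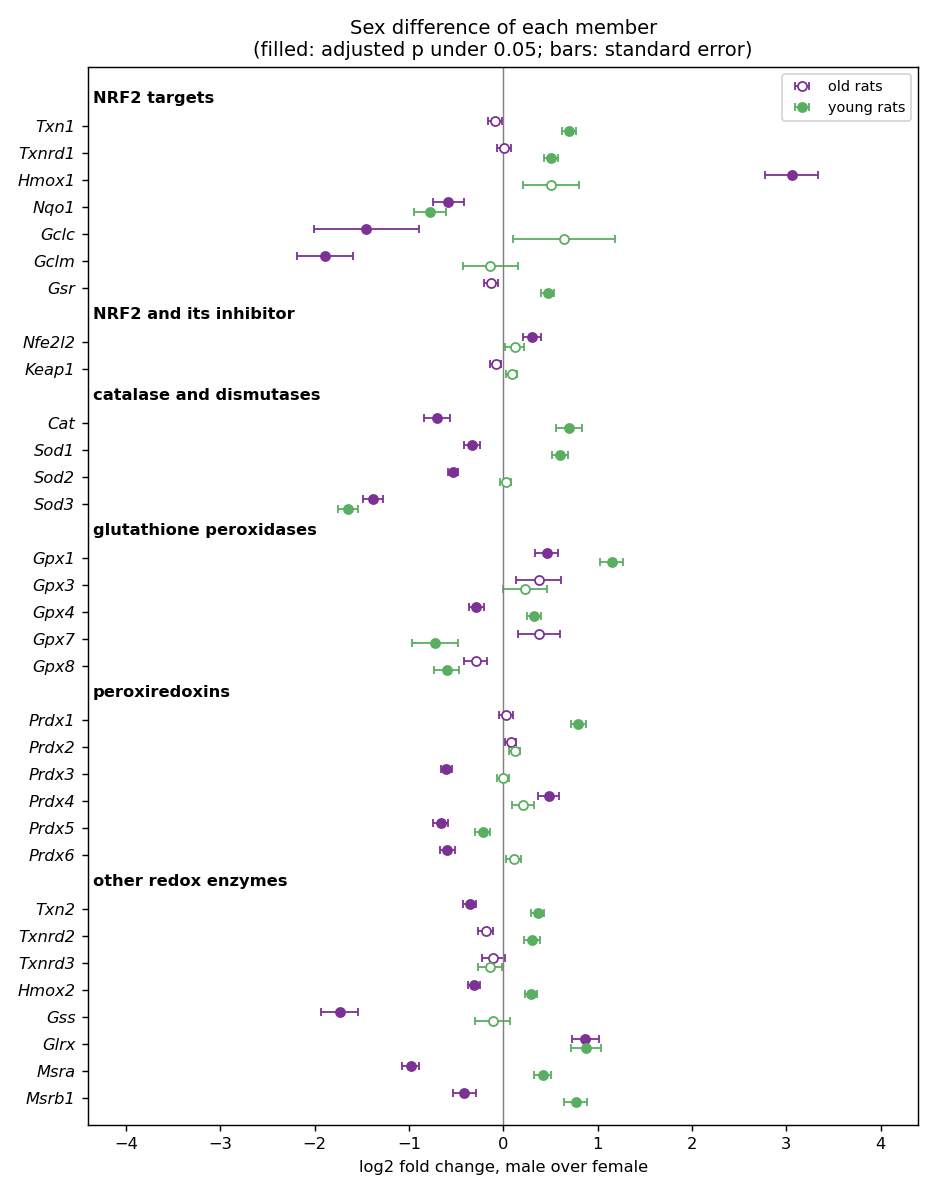
Log2 fold change of each measured gene between the sexes (male over female) in old and in young rats, grouped by role, with bars for the standard error and filled points for an adjusted p under 0.05. In old rats 16 genes passed below 0 and 5 above, and in young rats 14 passed above 0 and 5 below.

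The age-by-sex contrast, the log2 change with age in males less the same change in females, tested whether age acted alike in the sexes. It was negative and passed for 20 of 32 members and positive for 2, against 19.3% negative, 19.4% positive and 38.7% either over all genes, with a members' median of -0.58. Scaling by library totals alone gave 13 negative and 8 positive, against 898 negative and 6677 positive of all 14390 genes. With TMM scaling the positive members were Hmox1 (2.55, SE 0.410, adjusted p = 0.000147) and Gpx7 (1.10, SE 0.331, adjusted p = 0.0146). The most negative were Gclc (-2.09, SE 0.773, adjusted p = 0.0413), Gclm (-1.75, SE 0.409, adjusted p = 0.00298), Gss (-1.62, SE 0.271, adjusted p = 0.000212), Cat (-1.40, SE 0.193, adjusted p = 3.99e-05) and Msra (-1.40, SE 0.128, adjusted p = 1.58e-06). The call of Gclc passed in 11 of 26 other settings, but not when any 1 library other than old male replicate 1, old male replicate 4 or young male replicate 4 was left out (adjusted p = 0.0529 to 0.0712). Without old male replicate 4 its value was -1.69 (adjusted p = 5.51e-05). For Gpx1 the contrast was -0.69 (SE 0.171, adjusted p = 0.00449), and its age change passed in females and not in males. By role, 5 of 7 NRF2 targets were negative and 1 positive, and 9 of 15 peroxidases, catalase and dismutases were negative and 1 positive. Library totals alone made these 3 negative and 2 positive NRF2 targets, and 5 negative and 5 positive enzymes. Calls that did not pass in this contrast under another setting, with the log2 difference there in brackets, were those of Sod2 (-0.18), Gpx1 (-0.31), Gpx4 (-0.23), Prdx5 (-0.06), Txnrd1 (-0.12), Txnrd2 (-0.11) and Gclc (-1.71) under library totals alone, of Gpx1 (-0.49) and Gpx7 (1.08) among DS libraries alone and of Gpx7 (0.80) and Gclc (-1.98) with the inner medulla score as covariate. Sod3, Gpx3, Gpx8, Prdx2, Prdx4, Nqo1, Nfe2l2, Keap1, Txnrd3 and Glrx did not pass.

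Other genes of the same pathways were counted from further lists, with log2 fold changes of old over young males in brackets for the genes named. Of 24 tested further NRF2 targets, 10 were lower (41.7%) and 6 higher (25%), with a median of -0.07, and under library totals alone 5 were lower and 11 higher (median 0.26). Over all genes 24.6% were lower and 25.3% higher, so the share of higher targets was near that of all genes. Under library totals alone, 1329 of all 14390 genes were lower and 7849 higher (median 0.32). Gpx2, a glutathione peroxidase best known from gut epithelium, was higher, at 122 ± 23.2 CPM in old males and 33.9 ± 4.52 CPM in young males (log2 fold change 1.84 with an SE of 0.133, adjusted p = 3.78e-08). The glutathione transferases Gsta2 (-1.74) and Gsta4 (-1.17) and Me1 (-1.39), which makes NADPH, were lower. Gsta2 has near copies among the alpha class transferases, so its counts are uncertain. Of 12 regulators of NRF2, 3 were lower (25%, against 24.6% of all genes) and 1 higher (8.33%, against 25.3%). The lower ones were the ubiquitin ligase scaffold Cul3 (-0.25), the Keap1 partner Dpp3 (-0.35) and the repressor Bach1 (-0.27), and the higher one was the coactivator Ncoa3 (0.32). The share of lower regulators was near that of all genes. Under library totals alone these regulators gave 8 higher, and the other 4 did not pass. In females with age, 1 further target was lower and 2 higher, and 0 of 12 regulators passed by edgeR (2 at an unadjusted p under 0.05, and 1 each by DESeq2 and limma-voom). Over all genes 3.17% were lower and 2.54% higher there.

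Glutathione turnover, which recycles extracellular glutathione and detoxifies with it, had 10 of 14 genes lower and 3 higher in old males (median -0.69). These are 71.4% and 21.4%, against 24.6% lower and 25.3% higher over all genes. Anpep (-1.95), a brush border peptidase that cleaves the last dipeptide, stood at 450.1 ± 161 CPM in old males and 1736 ± 111 CPM in young males. Hagh (-1.25), a glyoxalase, Oplah (-1.07), which opens oxoproline, and Lap3 (-0.81) were lower too. Selenoprotein synthesis serves Gpx1, Gpx3, Gpx4, the thioredoxin reductases and Msrb1, and 7 of its 9 tested genes were lower and the other 2 did not pass (median -0.59), while library totals alone gave 5 lower and 2 higher. The falls included Sepsecs (-0.79) and Sephs2 (-0.71), which make selenocysteine, the plasma selenium carrier Selenop (-0.92) and its tubule receptor Lrp2 (-0.84), which is also a proximal tubule marker. Peroxisome assembly had 12 of 16 genes lower, while the other 4 did not pass (median -0.38), among them Pex7 (-0.62), Pex10 (-0.61) and Pex13 (-0.57), in the same libraries in which catalase, a peroxisomal enzyme, was lower. Under library totals alone that list gave 6 lower and 2 higher. Of all 14390 genes, that scaling gave 1329 lower and 7849 higher. With age in females, 0 of the 9 selenoprotein genes and 0 of the 16 peroxisome genes passed by edgeR, DESeq2 or limma-voom (0 and 3 at an unadjusted p under 0.05 by edgeR), and 1 of the 14 turnover genes was higher. Over all genes 5.71% passed there by edgeR, and 2.54% were higher. Of 12 proximal tubule markers, 8 were lower and 2 higher in old than in young males (median -0.67), and their part in these counts was not tested.

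The authors' deposited tables list genes with an absolute log2 fold change of at least 1. In the authors' deposited table of young over old males, 1974 genes are listed and 6 are members, with log2 fold changes of 2.51 for Gclc, 1.94 for Gclm, 1.80 for Gss, 1.58 for Cat, 1.45 for Msra and -2.21 for Hmox1, where a positive value means lower in old males. The authors' deposited table of old males over old females lists 2019 genes and 5 members, which are Gclc, Gclm, Gss, Hmox1 and Sod3. The authors' deposited table of young males over young females lists 1002 genes and 2 members, Gpx1 and Sod3, and that of young over old females lists 291 genes and 0 members. Gpx1, which passed here with age in females at a log2 fold change of 0.70, is below that size.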

How the data were processed

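RNA was sequenced in 16 libraries of rat kidney cortex. Per the labels' protocols, an RNeasy Micro kit gave total RNA and a TruSeq Stranded mRNA kit the libraries. The notes on processing by the submitters name the build Rnor_6.0 and edgeR 3.8.6. Which aligner and counter were run, and whether counting used strand, is not given in the sources used. Overlapping genes, and short genes such as Txn1, Prdx1 and Sod1 that can have processed copies elsewhere, are therefore uncertain. The authors deposited whole-number counts for 32623 genes, which entered the tests unchanged. The deposited RPKM equal each count over the library's total and the listed length plus 1 (largest relative difference 3.3e-14), so they only serve to compare genes. The authors' deposited tables give log2 fold changes and adjusted p-values (false discovery rates) for listed genes only.

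Counts were fitted with edgeR 4.0.16 in R 4.3.3 (filterByExpr, TMM factors, quasi-likelihood test, a mean for each of 4 groups over all 16 libraries, biological coefficient of variation 0.13). The filter kept 14390 genes with 99.93% of the counts. Tests were two-sided, with Benjamini-Hochberg adjustment over all genes tested, and a gene passed under 0.05. Every adjusted p comes from this test unless another setting is named, and a fold change or difference is old over young or male over female on the log2 scale. The standard error is the absolute log2 fold change over the square root of the F statistic. CPM use TMM-scaled totals. Alternatives were other scalings (DESeq2 1.42.0 size factors, library totals), DESeq2, limma-voom (limma 3.58.1), filters, covariates, a replicate block and leaving out each library. The fitting procedure was tested on simulated data.

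Members and lists were chosen with earlier results of these data known. Values per library are printed for members that passed in the age-by-sex contrast, or that passed a pairwise comparison at 1.5-fold or more. Other lists name up to 4 genes with the smallest p with age in males among those that passed any pairwise comparison. A few genes this rule selects are not reported here. Libraries of a group differed by more than sampling noise (chi-square per degree of freedom 6.28 to 49.5, from genes with 20 or more counts), so none was counted as a copy. Promoter windows come from RefSeq, build GRCr8, and 27 of the 33 symbols matched, some with more than 1 window (31 windows in all).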

Additional observations from a re-analysis of the deposited data

Results flagged for a closer look

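A library far from the other 3 of its group, by Dixon's test at its 95% critical value, was found in 10 of the 128 groups of 4 examined (32 genes in 4 groups), and chance alone gives such a library in about 1 in 20 groups. Sod1 in old male replicate 3 stood at 464 CPM, against 507 to 513 CPM in the other 3 libraries of its group. For Sod2, old male replicate 1 gave 226 CPM, with the other 3 at 201 to 203 CPM. Gpx3 in old male replicate 4 stood at 19897 CPM, against 10288 to 11499 CPM in the other 3 libraries of its group. For Prdx1, old female replicate 3 gave 559 CPM, with the other 3 at 634 to 646 CPM. Prdx2 in old female replicate 1 stood at 170.0 CPM, against 195 to 197 CPM in the other 3 libraries of its group. For Prdx5, old male replicate 1 gave 272 CPM, with the other 3 at 225 to 228 CPM. Nfe2l2 in young male replicate 4 stood at 166 CPM, against 129 to 132 CPM in the other 3 libraries of its group. For Nqo1, old female replicate 1 gave 15.7 CPM, with the other 3 at 13.7 to 13.8 CPM. Gss in young male replicate 3 stood at 872 CPM, against 772 to 783 CPM in the other 3 libraries of its group. For Glrx, young male replicate 4 gave 16 CPM, with the other 3 at 10.7 to 11.4 CPM. Old male replicate 4, which was also low in S3 and thick ascending limb markers, was not among these for Gclc, Gclm or Gss on this scale.

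The change with age differed between the sexes for 22 of 32 genes by the age-by-sex contrast, given as the log2 change with age in males less the same change in females. It was negative for Gclc (-2.09), Gclm (-1.75), Gss (-1.62), Cat (-1.40), Msra (-1.40), Msrb1 (-1.18), Sod1 (-0.93), Txn1 (-0.79), Prdx1 (-0.77), Txn2 (-0.72), Prdx6 (-0.70), Gpx1 (-0.69), Gpx4 (-0.61), Hmox2 (-0.60), Prdx3 (-0.60), Gsr (-0.60), Sod2 (-0.56), Txnrd1 (-0.50), Txnrd2 (-0.50) and Prdx5 (-0.45). It was positive for Gpx7 (1.10) and Hmox1 (2.55).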

How the results depend on the processing

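Each result was recomputed under other settings. The sign of a log2 difference turned in 68 values of 31 gene and comparison pairs, and among these 1 had passed before, Txnrd2 with age in males, and 3 passed under the other setting, Keap1 with age in males, Sod2 for sex in young rats and Prdx2 in the age-by-sex contrast, each under library totals alone. Under library totals alone the turned values were Txnrd2 (0.0305), Keap1 (0.22) and Nqo1 (0.26) with age in males, Txn2 (-0.0184) with age in females, Txn1 (0.11), Txnrd2 (0.0126), Txnrd3 (0.097), Keap1 (0.12) and Gsr (0.0721) for sex in old rats, Sod2 (-0.16), Prdx2 (-0.0591), Prdx6 (-0.0713), Nfe2l2 (-0.0577) and Keap1 (-0.0911) for sex in young rats, Prdx2 (0.34), Keap1 (0.21) and Glrx (0.37) in the age-by-sex contrast. Among DS libraries alone the turned values were Txnrd3 (-0.10) and Hmox2 (-0.0262) with age in females, Txnrd3 (0.20) for sex in old rats, Nqo1 (-0.0324) and Glrx (0.14) in the age-by-sex contrast. With the inner medulla score as covariate the turned values were Txnrd3 (-0.0885) and Hmox2 (-0.0337) with age in females, Prdx1 (-0.0008) and Txnrd1 (-0.0172) for sex in old rats, Gpx3 (-0.15), Prdx3 (0.0169) and Hmox1 (-0.18) for sex in young rats. With the identifier prefix as covariate the turned values were Gpx3 (0.0611) with age in females, Txnrd1 (-0.0282) for sex in old rats, Glrx (0.0617) in the age-by-sex contrast. In a fit of only the groups compared the turned value was Txnrd1 (-0.0013) for sex in old rats. With no filter on low counts the turned value was Glrx (0.0012) in the age-by-sex contrast. With genes kept at a CPM of 1 in 4 or more libraries the turned value was Glrx (0.0021) in the age-by-sex contrast. Leaving out 1 library at a time turned 33 values, in ranges of Gpx1 (-0.07 to 0.0784), Gpx3 (-0.17 to 0.20) and Nqo1 (-0.16 to 0.0421) with age in males, Sod2 (-0.0295 to 0.0115) and Gpx3 (-0.21 to 0.18) with age in females, Prdx1 (-0.0403 to 0.0487) and Txnrd1 (-0.0433 to 0.0816) for sex in old rats, Sod2 (-0.0063 to 0.0615) and Prdx3 (-0.0427 to 0.0177) for sex in young rats, Gpx3 (-0.11 to 0.30), Txnrd3 (-0.0356 to 0.13) and Glrx (-0.13 to 0.14) in the age-by-sex contrast. Over single genes and settings, direction and side of the threshold were kept in 590 with age in males (7 lost the call, 3 gained it and 8 turned), 609 with age in females (17, 5 and 9), 554 for sex in old rats (22, 15 and 17), 564 for sex in young rats (27, 4 and 13) and 782 in the age-by-sex contrast (24, 5 and 21). With library totals alone, members higher with age in males went to 11, members between the sexes in old rats to 9 higher and 9 lower, and members in the age-by-sex contrast to 8 higher and 13 lower. The counts over all genes moved with that scaling too, as given with each comparison. At 1.5-fold or more, all genes that passed numbered 3712 with age in males, 504 with age in females, 3772 for sex in old rats, 2275 for sex in young rats and 3626 in the age-by-sex contrast. The members then were 3 higher and 11 lower with age in males, 1 higher with age in females, 2 higher and 9 lower for sex in old rats and 7 higher for sex in young rats. An adjusted p under 0.01 left 219 genes and 1 member higher with age in females, 2900 genes and 3 members lower for sex in young rats and 1 member higher in the age-by-sex contrast. An inner medulla score as covariate left 219 genes with age in females, 1696 genes with 9 members higher and 1 lower for sex in young rats, and 1 member higher in the age-by-sex contrast. DS libraries alone left 259 genes and 1 member higher with age in females, 4323 genes for sex in old rats and 1 member higher in the age-by-sex contrast. Fitting only the groups compared added 1 member lower with age in females, Gclc. The A added to the core motif left 2 of 8 genes.

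Leaving out each library in turn gave 308 to 1013 genes with age in females and 1 to 5 members higher. The genes numbered 308 without young female replicate 1, 470 without young female replicate 2, 399 without old female replicate 2 and 407 without old female replicate 4, each with 1 member higher, and 5 members were higher without young female replicate 4. Members lower for sex in young rats ran from 3 to 5. With age in males the members stayed at 7 higher and 19 lower, with 6473 to 7088 genes. The call of Gclc between old males and old females was lost without any 1 old female library or without old male replicate 2 or 3.

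Replicate numbers shared by the groups are not said to pair the libraries. Same-numbered libraries deviated together by correlations of -0.131 to 0.191, and not every library correlated best with its own number. With the replicate number as a block, members lower for sex in young rats were 3, against 5 without it. Depth limits the genes at few counts, such as Gpx7. Where a value changed with a setting, the cause was not tested.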

Other observations

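Enzymes that make oxidants moved both ways in old against young males. Of 18 tested, 7 were higher and 7 lower (median log2 fold change 0.06), or 10 higher and 6 lower under library totals alone, and with age in females 0 passed by edgeR, DESeq2 or limma-voom (6 at an unadjusted p under 0.05 by edgeR). Each direction in males held 38.9% of them, against 25.3% higher and 24.6% lower over all genes. Under library totals alone, 7849 of all 14390 genes were higher and 1329 lower. With age in females 5.71% of all genes passed by edgeR. Rac2 and Cybb, parts of the phagocyte oxidase, were higher in old males, with Rac2 at 26.1 ± 4.54 CPM in old males and 6.30 ± 0.734 CPM in young males (log2 fold change 2.04 with an SE of 0.184, adjusted p = 2.56e-07) and Cybb at 46.1 ± 8.85 CPM in old males and 14.5 ± 1.46 CPM in young males (log2 fold change 1.67 with an SE of 0.165, adjusted p = 6.03e-07). Dao, a peroxisomal amino acid oxidase of the proximal tubule, stood at 648 ± 47.8 CPM in old males and 1361 ± 78.6 CPM in young males (log2 fold change -1.07 with an SE of 0.0906, adjusted p = 1.35e-07). All 13 tested macrophage and monocyte markers were higher in the same old male libraries, and their part in the rise of Rac2 and Cybb was not tested.

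Of 18 further thiol and redox enzymes, 8 were lower and 5 higher in old than in young males (median -0.06), and under library totals alone 2 were lower and 9 higher. The first counts are 44.4% and 27.8%, against 24.6% lower and 25.3% higher over all genes, so the share higher was near that of all genes. Under library totals alone, 1329 of all 14390 genes were lower and 7849 higher. Cp, the copper ferroxidase ceruloplasmin, stood at 170.2 ± 45.6 CPM in old males and 23.4 ± 1.39 CPM in young males (log2 fold change 2.86 with an SE of 0.263, adjusted p = 2.98e-07). Msrb2, a mitochondrial methionine sulfoxide reductase (-0.52), Nnt, which makes mitochondrial NADPH (-0.55), and Ccs, the copper chaperone of Sod1 (-0.37), were lower on the log2 scale. With age in females 2 of the 18 were higher, against 2.54% of all genes, and the other 16 did not pass.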
